A study of Homo sapiens with 8 samples.

Results

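Respiratory complexes II to V are the protein machines of the inner mitochondrial membrane that take electrons from succinate, pass them through cytochrome c to oxygen and use the resulting proton gradient to make ATP. Their nuclear-encoded genes were picked by symbol alone: SDHA to SDHD for complex II, CYC1 and the UQCR genes for complex III, the COX4 to COX8 genes for complex IV and the ATP5 genes for complex V, with pseudogenes left out. This gave 43 of the 13841 rows of the count table: 4 for complex II, 9 for complex III, 12 for complex IV and 18 for complex V. The ATP5 symbols include ATP5S and ATP5SL, which RefSeq now names DMAC2L and DMAC2 and which do not encode core subunits of the enzyme.

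The samples were A549 cells, an established human lung adenocarcinoma line used as a stand-in for alveolar epithelium. All 8 samples had undergone cyclic stretch (15% elongation, 15 cycles per min) for 24 h and a further 6 days of culture, and they were then sorted into cells positive (4 libraries, numbers 1, 3, 4 and 5, labelled senescent) or negative (4 libraries, numbers 2, 6, 7 and 8, labelled non-senescent) for β-galactosidase, a lysosomal enzyme whose activity often goes up as cells become senescent. The comparison asks whether stained and unstained cells of a stretched culture differ in these transcripts, in a series on senescence of alveolar epithelium after mechanical stretch. Unstretched cells were not analysed here, and the model is 1 tumour cell line. Whether each library stands for its own culture is not stated in the labels, so a p-value reflects only how far these libraries differ among themselves, and that spread may be technical. In such bulk samples fewer expressing cells and less RNA per cell cannot be told apart.

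As background, complex II carries electrons from succinate to ubiquinone, complex III from ubiquinol to cytochrome c, and complex IV from cytochrome c to oxygen. Complex V, the ATP synthase, has a catalytic head (F1), a rotating ring of c subunits in the membrane and a peripheral stalk that holds the head still. All subunits of complex II are nuclear-encoded, whereas complexes III to V also contain subunits encoded by mitochondrial DNA. Many of the nuclear genes have promoters with sites for NRF1 (nuclear respiratory factor 1), for GABP of the ETS family, or for YY1.

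Promoters from RefSeq (GRCh38.p14, 250 bases before to 50 after the start) were matched for 33 of the 43 genes and searched on both strands. The letters GCATGCGC, the core of the NRF1 motif, were in 24.2% of the matched promoters (8 of 33) and in 3.27% of all 27305 promoters in the RefSeq table, which also holds non-coding genes. The letters CCGGAAG of the ETS family were in 42.4% (14 of 33) and 10.7% of all, and AAGATGG of YY1 in 27.3% (9 of 33) and 6.06% of all. The NRF1 letters read nearly the same on both strands, so forward and reverse matches can overlap, and each promoter was counted once. The stretches below, all upstream of the start and outside annotated exons, are shown because they hold these letters in genes of 3 complexes. They lie at chr1:17054185-17054272 (minus strand) for SDHB, chr12:120437863-120437986 (plus strand) for COX6A1, chr2:97645886-97645973 (plus strand) for COX5B and chr17:75046986-75047183 (minus strand) for ATP5H. Capitals mark the NRF1 letters in SDHB, COX6A1 and COX5B, where the second run in COX6A1 is those letters as they read on the other strand. In ATP5H they mark the ETS letters, also as read on the other strand.
SDHB: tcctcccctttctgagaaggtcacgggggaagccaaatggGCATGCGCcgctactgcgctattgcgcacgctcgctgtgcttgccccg
COX6A1: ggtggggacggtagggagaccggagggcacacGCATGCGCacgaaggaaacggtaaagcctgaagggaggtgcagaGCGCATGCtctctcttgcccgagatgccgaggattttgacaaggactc
COX5B: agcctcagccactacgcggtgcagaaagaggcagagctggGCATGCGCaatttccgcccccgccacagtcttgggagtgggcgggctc
ATP5H: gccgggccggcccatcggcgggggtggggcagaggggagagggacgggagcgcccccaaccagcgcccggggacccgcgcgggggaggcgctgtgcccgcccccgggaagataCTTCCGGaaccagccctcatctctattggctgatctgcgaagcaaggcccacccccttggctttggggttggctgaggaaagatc

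Library totals ran from 5634961 counts (positive 1) to 7990839 (negative 2). These 2 libraries also stood apart in their expression profiles, with mean Pearson correlations to the other libraries, across genes, of 0.927 and 0.920 against 0.956 to 0.962 for the other 6. All 5 epithelial markers examined (KRT8, KRT18, KRT19, EPCAM and CDH1) were detected in each library, with summed levels of 1170 to 1588 CPM (counts scaled to a common library total) in positive and 1332 to 2378 CPM in negative cells. Of the fibroblast markers 5 of 7 had a row in the count table, at a sum of 18.02 to 18.4 CPM in positive and 17.6 to 20.7 CPM in negative cells. Of the leukocyte markers 4 of 6 had a row, at 71.7 to 76.2 and 57.7 to 76.0 CPM, and the general leukocyte marker PTPRC had none. Of the endothelial markers 1 of 4 had a row (CDH5, at most 1.18 CPM), and no muscle marker had one. The part of other cell types in the results was not tested.

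As a set, the subunit genes had lower estimates in the positive cells, although no single gene passed the test. Of the 43 genes 42 were tested. After adjustment, 0 reached the 0.05 threshold in the edgeR quasi-likelihood fit, as was so for all rows of the table (0 of 11351, or 0%). DESeq2's Wald test and limma voom also called 0 of the 42. The log2 fold change of positive over negative cells was below 0 in 36 of the 42, against 51.9% of all rows tested, and its median was -0.33 against -0.02. At an unadjusted p under 0.05 in edgeR's test, 13 of the 42 genes were lower and 1 was higher, where the shares over all rows were 6.85% lower and 7.52% higher. The genes are well counted, and among rows with a mean of at least 50 CPM the lower share was 13.1%, beside 11 of the 34 genes at that level. Those 34 genes had a median of -0.37 with 88.2% of them below 0 (30 of 34), and all rows at that level had a median of -0.15 with 68.9% below 0. The count of 13 went down to 4 without negative 2, where the lower share of all rows also went down, to 3.01%. It was 5 without positive 4 (3.54% of all rows), 7 without positive 1 (5.49%) and 7 without negative 7 (5.03%). It was 5 without both positive 1 and negative 2 (4.27% of all rows), and 5 with scaling to library totals only (2.85%).

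**Figure D1:**
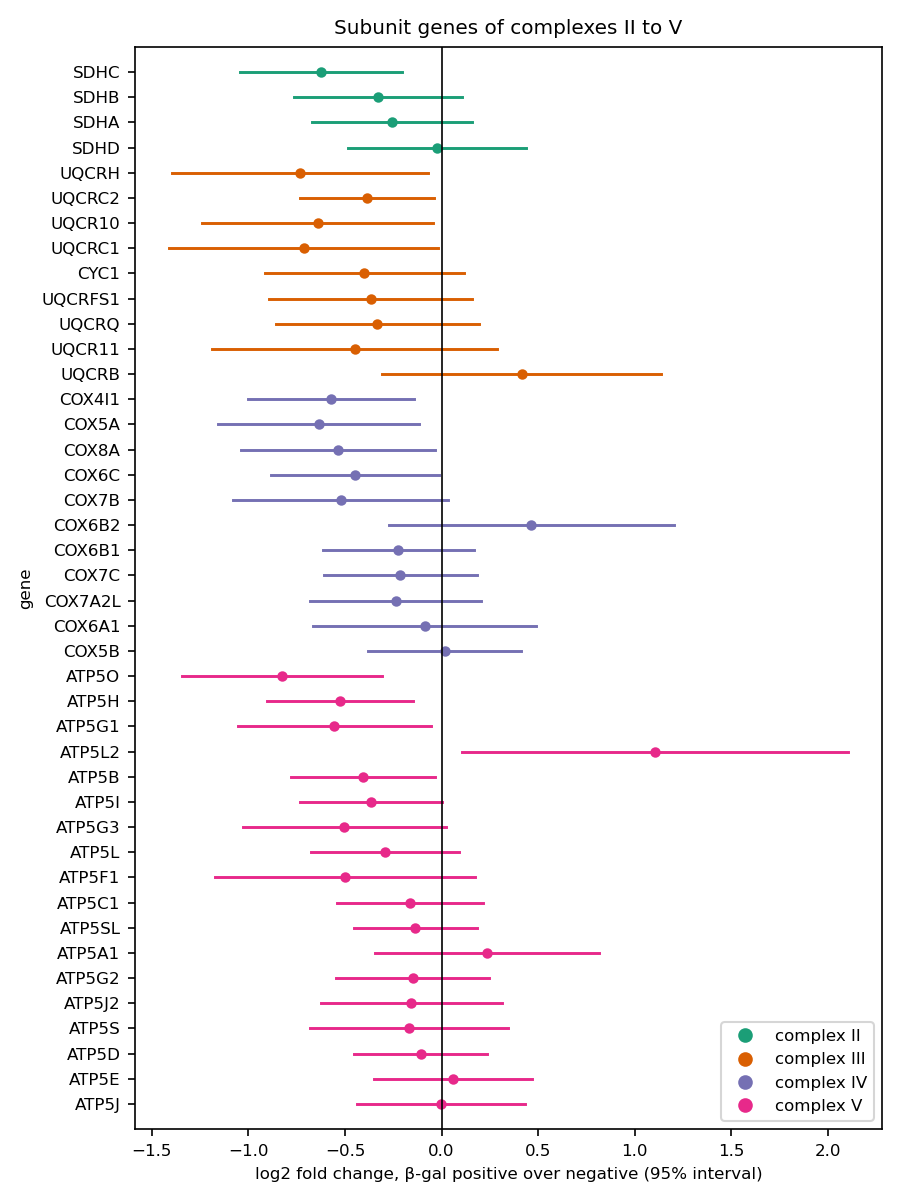
Log2 fold change of β-galactosidase positive over negative cells (x axis) for each of the 42 tested genes (y axis), with its 95% interval as a line and colour for the complex. Most points lie left of 0, in 36 of 42 genes, and the interval lies wholly right of 0 for ATP5L2 alone.

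All 4 positive libraries lay below all 4 negative ones for 6 of the 42 genes (SDHC, UQCRC2, COX4I1, COX6C, ATP5O and ATP5H), where 4.14% of all rows did so. The reverse was seen for ATP5L2 alone, where 5.0% of all rows did so.

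Complex II oxidises succinate to fumarate and so belongs both to the respiratory chain and to the citric acid cycle. SDHC, one of its membrane anchors (chromosome 1, 161314381 to 161363206), was at 101, 140, 119 and 129 CPM in positive 1, 3, 4 and 5 and at 246, 165, 194 and 147 CPM in negative 2, 6, 7 and 8. Every positive library was thus below every negative one. The means were 122 ± 16.5 and 188 ± 43.4 CPM (SD, n = 4 each), and the log2 fold change was -0.62 ± 0.19 (SE; edgeR unadjusted p = 0.00692, adjusted p = 0.309). It was -0.45 without negative 2 and -0.37 without both positive 1 and negative 2.

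SDHA, the flavoprotein that binds succinate, was at 207, 147, 134 and 128 CPM in positive 1, 3, 4 and 5 and at 152, 199, 206 and 179 CPM in negative 2, 6, 7 and 8. Positive 1 was the highest positive library and negative 2 the lowest negative one, the opposite of their places for SDHC. With all libraries the log2 fold change was -0.26 ± 0.19 (SE; edgeR adjusted p = 0.517). Without those 2 libraries it was -0.49, at an unadjusted edgeR p of 0.00286. Leaving out the highest positive and the lowest negative library was bound to widen the difference, so that p-value adds no support. SDHB, the iron-sulphur subunit, was at 22.5, 30.3, 35.7 and 30.7 CPM in the positive libraries and at 46.5, 33.8, 35.5 and 34.1 CPM in the negative ones. Positive 4 lay above 3 of the negative libraries, and the log2 fold change of -0.33 ± 0.20 (SE) had a 95% interval of -0.76 to 0.10. The other membrane anchor, SDHD, was at -0.03 (-0.49 to 0.44). Over the complex the median was -0.29, with 4 of 4 genes below 0 and 1 with an unadjusted p under 0.05.

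With all 8 libraries complex III had the lowest median of the 4 complexes, -0.40, with 8 of 9 genes below 0 and 4 lower at an unadjusted p under 0.05 in edgeR's test. This place rested on negative 2: without it the median was -0.13, the nearest to 0 of the 4, with 0 genes lower by that rule, and complex II was lowest at -0.26. With limma voom complex III was at -0.16 and complex II at -0.31, and without both positive 1 and negative 2 they were at -0.08 and -0.22. UQCRC2, a core subunit on the matrix side (chromosome 16, 21953361 to 21983660), was at 219, 246, 191 and 224 CPM in positive 1, 3, 4 and 5. In negative 2, 6, 7 and 8 it was at 330, 278, 287 and 253 CPM, so the groups did not overlap. Its log2 fold change was -0.38 ± 0.16 (SE; edgeR unadjusted p = 0.0328, adjusted p = 0.323). It was -0.30 without negative 2.

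UQCRH, the hinge protein that helps cytochrome c1 to meet cytochrome c, was at 147, 207, 156 and 211 CPM in the positive libraries and at 544, 205, 259 and 192 CPM in the negative ones. Negative 2 lay far above every other library, and negative 6 and 8 lay within the positive range. The log2 fold change of -0.73 ± 0.30 (SE; edgeR adjusted p = 0.323) was -0.26 without negative 2. UQCR10, a small membrane subunit, had a like pattern, at 18.7, 22.1, 16.7 and 23.3 CPM in positive and 51.2, 22.0, 30.4 and 22.4 CPM in negative libraries. Its log2 fold change was -0.64 ± 0.28 (SE; edgeR adjusted p = 0.327), and -0.29 without negative 2. The other core subunit, UQCRC1, was at -0.71 (95% interval -1.41 to -0.02) and at -0.34 without negative 2. UQCR11, another small subunit, was at -0.45 (-1.19 to 0.29), at -0.13 without negative 2 and at 0.14 without both positive 1 and negative 2.

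The catalytic subunits CYC1, which is cytochrome c1, and UQCRFS1, the Rieske iron-sulphur protein, were at log2 fold changes of -0.40 (-0.92 to 0.12) and -0.37 (-0.89 to 0.16). Without negative 2 they were at -0.06 and -0.02. The UQCRFS1 estimate is uncertain, since the row of its processed pseudogene UQCRFS1P1 held 288 to 505 CPM per library and a read that fits both copies may be assigned to either row. UQCRQ, the gene of the complex with the highest mean CPM, was at 373, 568, 767 and 469 CPM in positive and 936, 533, 621 and 651 CPM in negative libraries. These ranges overlapped widely, and its log2 fold change was -0.33 ± 0.24 (SE; edgeR adjusted p = 0.507). UQCRB, which helps to bind ubiquinone, was the only gene of complex III above 0, at 0.41 (-0.31 to 1.14). It was at 362 CPM in positive 1 and 86.4 CPM in negative 2, with the other 6 libraries between 161 and 305 CPM, and its log2 fold change was -0.03 without these 2 libraries.

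Complex IV, cytochrome c oxidase, had a median of -0.24, with 9 of 11 tested genes below 0 and 4 lower at an unadjusted p under 0.05. COX4I1, a subunit through which ATP regulates the enzyme (chromosome 16, 85799695 to 85807068), was at 275, 362, 281 and 390 CPM in positive 1, 3, 4 and 5 and at 637, 452, 466 and 392 CPM in negative 2, 6, 7 and 8. The groups did not overlap, but positive 5 and negative 8 were nearly equal. The means were 327 ± 57.8 and 487 ± 105 CPM (SD, n = 4 each), and the log2 fold change was -0.57 ± 0.20 (SE; edgeR unadjusted p = 0.0128, adjusted p = 0.310). It was -0.40 without negative 2 and -0.32 without both positive 1 and negative 2.

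COX5A, a matrix-side subunit, was at 139, 188, 142 and 188 CPM in positive and at 379, 200, 266 and 175 CPM in negative libraries. Negative 8 lay within the positive range. The log2 fold change was -0.64 ± 0.24 (SE; edgeR adjusted p = 0.312), and -0.36 without negative 2. COX8A, a small membrane subunit, was at 164, 195, 146 and 212 CPM in positive and 375, 176, 274 and 216 CPM in negative libraries. Negative 6 lay within the positive range, and the log2 fold change of -0.54 ± 0.23 (SE; edgeR adjusted p = 0.327) was -0.29 without negative 2. COX6C was at 144 to 180 CPM in positive and 181 to 323 CPM in negative cells, with positive 5 and negative 6 nearly meeting, and had a log2 fold change of -0.45 (-0.89 to -0.01), which was -0.21 without negative 2.

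COX6B1, a subunit on the outer side of the membrane with the highest mean CPM of the complex, was at 1584, 2075, 2405 and 1699 CPM in positive and at 2165, 2253, 2615 and 2033 CPM in negative libraries. The groups overlapped, and the log2 fold change was -0.22 ± 0.18 (SE; edgeR adjusted p = 0.544). COX7B was at -0.52 (-1.08 to 0.03), COX7C at -0.21, COX6A1 at -0.09 and COX5B at 0.02. Without negative 2, COX7B was at -0.18, COX7C at -0.04 and COX6A1 at 0.03. COX7A2L, which helps complexes III and IV to join in supercomplexes, was at -0.24 (-0.68 to 0.21). COX6B2, a form known from testis, was at 1.74 to 4.50 CPM over all libraries, with a log2 fold change of 0.47 (-0.27 to 1.21). COX7A2 held 3 to 12 counts per library, did not pass the low-count filter and was not tested.

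**Figure D2:**
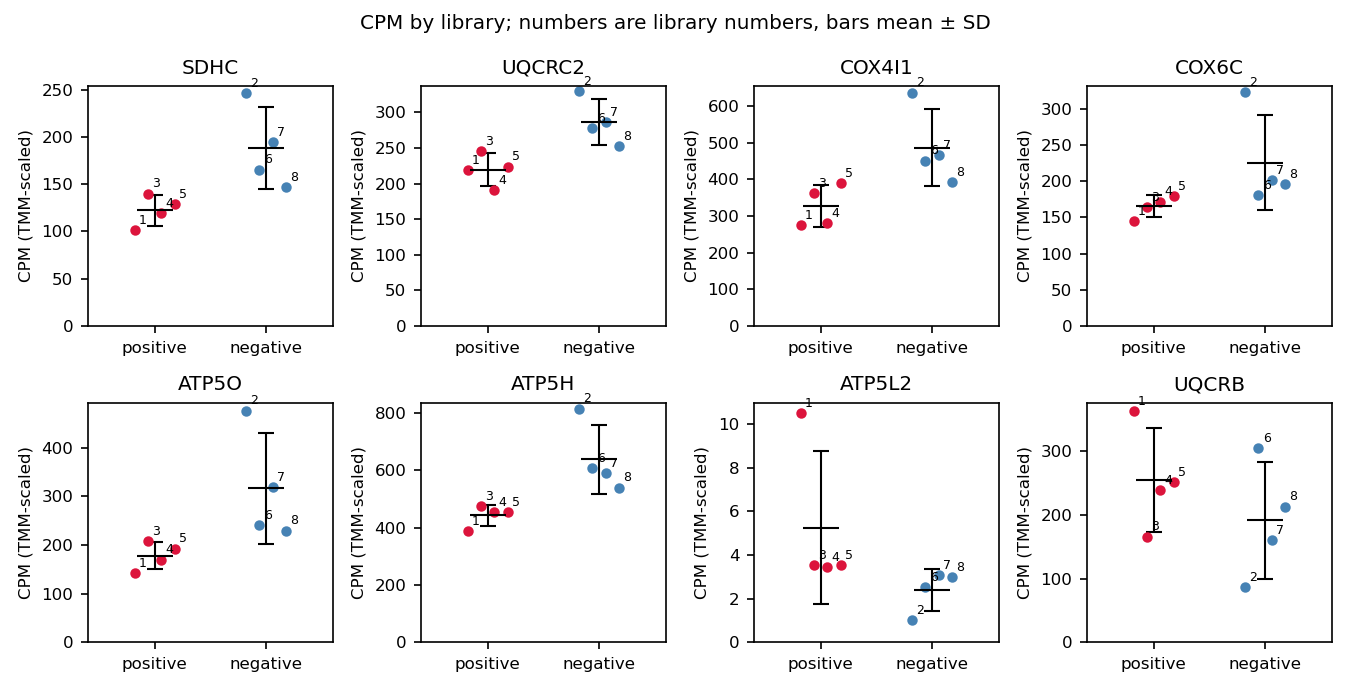
TMM-scaled CPM (y axis, from 0) of 8 genes in each library, by group (x axis), with points numbered by library and bars for the mean ± SD of 4 libraries. The first 7 panels show every tested gene whose groups do not overlap, so they do not represent the 42 tested genes. Negative 2 is the highest library for the first 6 genes, and in UQCRB positive 1 is highest and negative 2 lowest.

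Complex V had a median of -0.17, with 15 of 18 genes below 0, 4 lower and 1 higher at an unadjusted p under 0.05. The peripheral stalk genes had a median of -0.51 (4 of 4 below 0), the c ring genes -0.50 (3 of 3), the small membrane subunits -0.22 (4 of 6, with USMG5 and C14orf2 added to the ATP5 symbols) and the catalytic F1 genes -0.11 (3 of 5). Without negative 2 the medians were -0.25 for the stalk, -0.23 for the c ring, -0.03 for the small membrane subunits and -0.002 for F1. Without both positive 1 and negative 2 they were -0.12, -0.23, 0.03 and -0.07, so the distance between the parts was smaller. The difference between these parts was not tested.

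In the peripheral stalk, ATP5O, the subunit that joins the stalk to the head (chromosome 21, 33903453 to 33915804), was at 143, 208, 170 and 193 CPM in positive 1, 3, 4 and 5. It was at 476, 241, 319 and 230 CPM in negative 2, 6, 7 and 8, all above the positive libraries. The means were 179 ± 28.4 and 317 ± 114 CPM (SD, n = 4 each), and the log2 fold change was -0.83 ± 0.24 (SE; edgeR unadjusted p = 0.00440, adjusted p = 0.309). It was -0.45 without both positive 1 and negative 2, at an unadjusted edgeR p of 0.0122. ATP5H, subunit d of the stalk (chromosome 17, 75038863 to 75046969), was at 388, 475, 453 and 453 CPM in positive and 814, 608, 589 and 539 CPM in negative libraries. The positive values were close together and all below the negative ones, and the log2 fold change was -0.53 ± 0.17 (SE; edgeR unadjusted p = 0.0103, adjusted p = 0.309). It was -0.37 without negative 2. The values for the other stalk genes were -0.50 (-1.17 to 0.18) for ATP5F1, subunit b, and -0.004 (-0.44 to 0.43) for ATP5J. ATP5F1 was at -0.13 without negative 2 and at 0.08 without both positive 1 and negative 2.

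The genes ATP5G1, ATP5G2 and ATP5G3 encode the same mature c subunit behind different import signals. ATP5G1 was at 159, 188, 152 and 174 CPM in positive and 375, 199, 246 and 170 CPM in negative libraries, with negative 8 inside the positive range. Its log2 fold change was -0.55 ± 0.23 (SE; edgeR adjusted p = 0.323), and -0.27 without negative 2. ATP5G2, the gene of complex V with the highest mean CPM, was at 854, 882, 896 and 734 CPM in positive and 752, 1161, 1031 and 791 CPM in negative libraries. Here negative 2 was among the lowest, and the log2 fold change was -0.15 ± 0.18 (SE; edgeR adjusted p = 0.694). ATP5G3 was at -0.50 (-1.03 to 0.02) and at -0.20 without negative 2.

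In the catalytic head, the β subunit ATP5B, which carries the catalytic sites, was at 632, 652, 511 and 513 CPM in positive and 899, 777, 744 and 640 CPM in negative libraries. Only negative 8 lay within the positive range, below positive 3 alone. The log2 fold change was -0.41 (-0.78 to -0.04), and -0.35 without both positive 1 and negative 2 (edgeR unadjusted p = 0.0349). The α subunit ATP5A1, its partner in the head, was at 0.23 (-0.35 to 0.82), with its lowest value, 56.0 CPM, in negative 2 and its highest, 151 CPM, in positive 1, and at -0.07 without these 2 libraries. The γ subunit ATP5C1 was at -0.16, the δ subunit ATP5D at -0.11 and the ε subunit ATP5E at 0.06.

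Among the small membrane subunits ATP5I was at -0.37 (-0.73 to 0.001), ATP5L at -0.29 (-0.67 to 0.09), ATP5J2 at -0.16 and USMG5, named by its older symbol, at 0.53 (0.01 to 1.06). USMG5 was lowest in negative 2, at 102 CPM, and its groups overlapped (166 to 289 CPM in positive and 102 to 216 CPM in negative libraries). ATP5L2, a gene closely like ATP5L, had the highest log2 fold change of the ATP5 genes. It was at 10.5, 3.53, 3.46 and 3.54 CPM in positive and 1.02, 2.54, 3.09 and 2.99 CPM in negative libraries, without overlap. The log2 fold change was 1.11 ± 0.46 (SE; edgeR adjusted p = 0.323), and 0.30 without both positive 1 and negative 2. Its row is low and resembles that of ATP5L, so reads can be divided between them and the estimate is uncertain. ATP5S and ATP5SL were at -0.17 and -0.14.

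The subunit genes shared a profile over the libraries. Of the 42 tested genes 27 (64.3%) had their highest CPM in negative 2, where 29.4% of all rows did, and 20 (47.6%) had their lowest in positive 1, where 23.9% of all rows did. The median of the genes, each centred on its own mean over the 8 libraries, was 0.48 in negative 2 and -0.28 in positive 1 on the log2 scale. In positive 3, 4 and 5 it was -0.09, -0.15 and -0.09, and in negative 6, 7 and 8 it was 0.06, 0.13 and -0.07. Negative 8 thus lay among the lower libraries, above positive 3 and 5 by a small margin. The profile was turned round in UQCRB, COX6B2, ATP5L2 and ATP5A1, which had their highest CPM in positive 1 and their lowest in negative 2. Negative 2 was the most deeply sequenced library and positive 1 the least, and the part of depth in the profile was not tested.

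**Figure D3:**
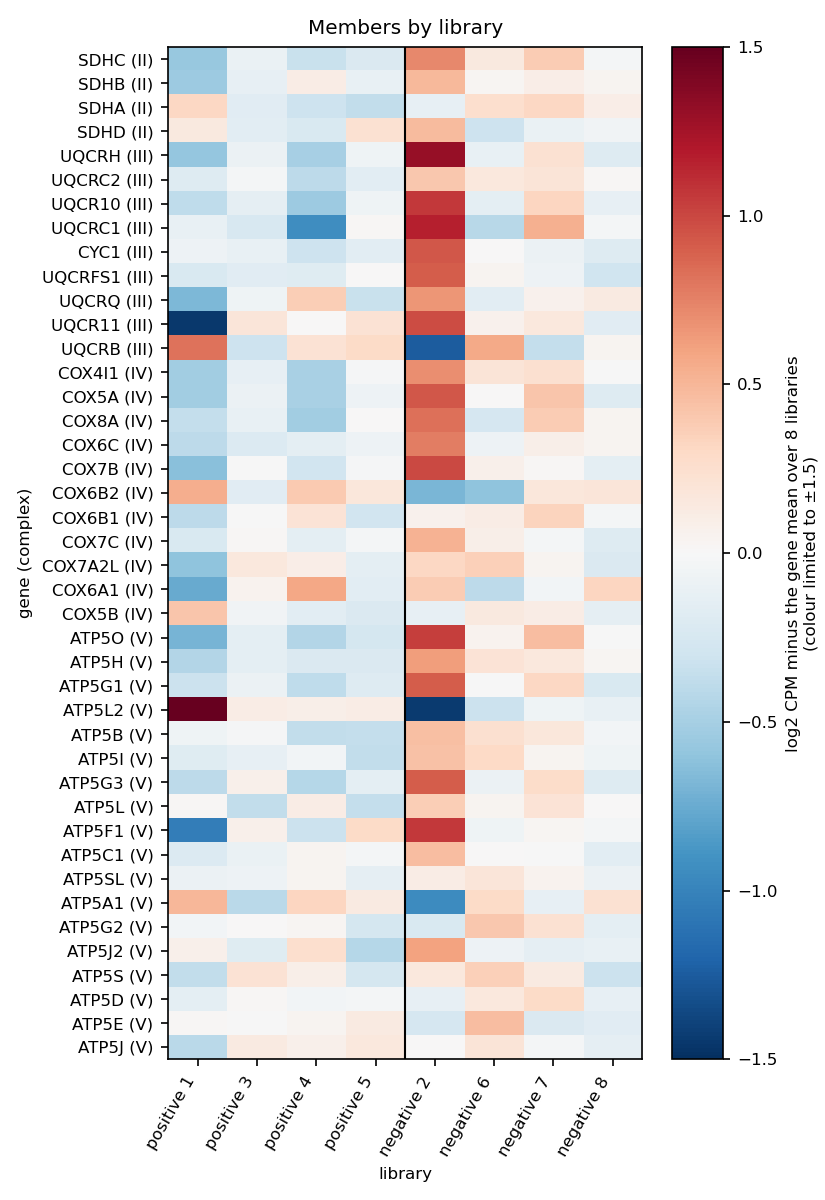
Log2 CPM of each of the 42 tested genes (rows) in each library (columns, positive left of the line), minus the gene's mean over 8 libraries, with red above and blue below that mean. The negative 2 column is mostly red, being the highest library for 27 of 42 genes, and UQCRB, COX6B2, ATP5L2 and ATP5A1 are blue there.

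Leaving out 1 library at a time kept the sign of the log2 fold change in 36 of the 42 genes, 32 of them below 0. COX4I1, SDHC, ATP5H and ATP5O had an unadjusted p under 0.05 in edgeR's test with all 8 libraries and with each of the 8 left out in turn. The shares of all rows that kept their sign or their p in this way are not given here. Whether the subunit genes stand out by these rules was thus not assessed. Without negative 2 the medians were -0.26 for complex II, -0.13 for complex III, -0.18 for complex IV and -0.14 for complex V. The median of complex III thus moved the most in size, from -0.40. Without both positive 1 and negative 2 the log2 fold change was below 0 in 29 of the 42 genes, with a median of -0.10 against 0.01 for all rows. The sign turned from below to above 0 in 10 genes (UQCR11, ATP5F1 and COX6A1 among them) and from above to below 0 in 3 (UQCRB, COX5B and ATP5A1). The 5 genes with an unadjusted p under 0.05 were then SDHA, SDHC, ATP5O, ATP5H and ATP5B, and 4.27% of all rows were lower by that rule. For SDHA the libraries left out were its highest positive and its lowest negative one.

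**Figure D4:**
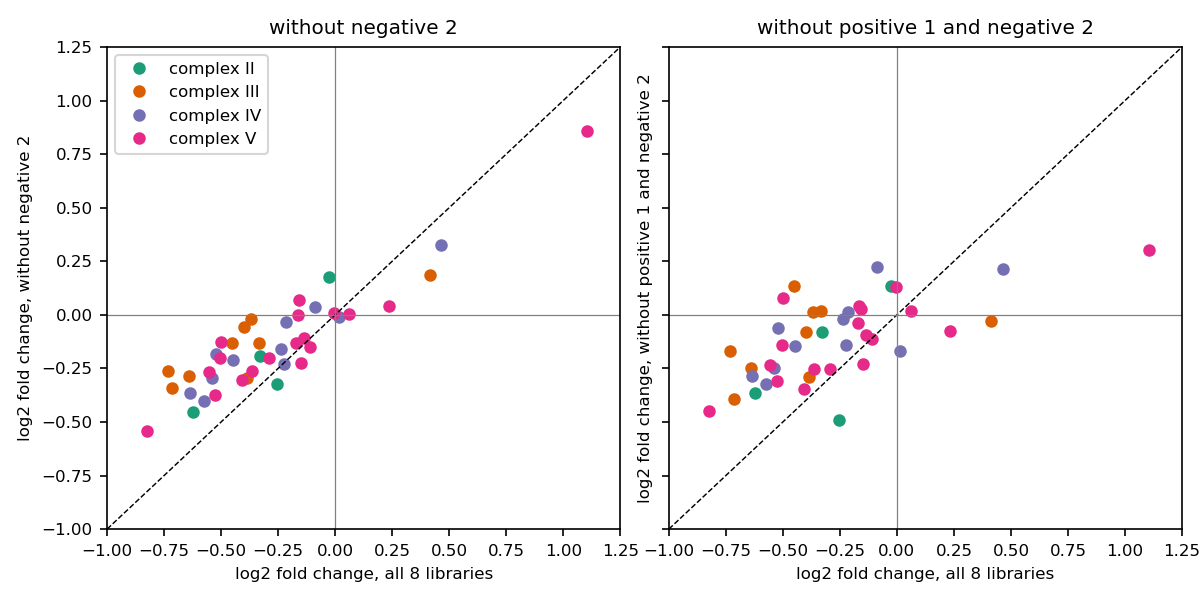
Log2 fold change of each of the 42 genes with all 8 libraries (x axis) against that without negative 2 (left) or without positive 1 and negative 2 (right), with the dashed line for equal values and colour for the complex. Most genes lie nearer to 0 on the y axis than on the x axis, and the median of the 42 is -0.17 in the left panel and -0.10 in the right.

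The scaling of the libraries bears on all of these values. With library totals alone the median over all rows was at 0.10 in place of -0.02, and the complexes were at -0.17, -0.26, -0.11 and -0.04 for II, III, IV and V. Relative to all rows the set stood at a like distance, with a median of -0.21. Summed over the 43 genes, the counts made up 1.20% to 1.35% of the library in positive cells and 1.38% to 1.61% in negative cells. These unscaled shares did not overlap. After TMM scaling the sums were 11290 to 13299 CPM in positive and 12989 to 18688 CPM in negative cells, and positive 4 lay above negative 8. Taken by complex, the scaled sums of complex II did not overlap (318 to 368 and 393 to 493 CPM), and those of complexes III, IV and V did. This was not particular to complex II. The sums of complex I genes (5171 to 5602 and 5665 to 7477 CPM) and of electron carriers (361 to 424 and 433 to 838 CPM) did not overlap either. Nor did those of the ATP synthase assembly factors (285 to 365 and 367 to 387 CPM, nearly meeting), the peripheral stalk (585 to 792 and 868 to 1484 CPM) or the complex III core subunits (209 to 275 and 287 to 409 CPM). The sums did overlap for F1, the c ring, the small membrane subunits, and the catalytic and small subunits of complex III. They also overlapped for the regulators and for the assembly factors of complexes II and III and of complex IV. A sum is weighted towards genes with high CPM, and the share of such sums over other gene sets is not given.

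Other genes of the pathway gave a mixed picture. The counts below at an unadjusted p under 0.05 in edgeR's test stand beside shares over all rows of 6.85% lower and 7.52% higher. Complex I feeds electrons from NADH into the chain, and its nuclear genes were picked by NDUF symbol alone. Of these, 27 of 34 tested genes were below 0, with a median of -0.28, 6 lower and 1 higher at an unadjusted p under 0.05. NDUFA4 (0.08) and NDUFA4L2 (-0.23) are among them by name, and their place in complex I was not checked. NDUFA12 and NDUFS5 were at -0.79 and -0.59. Assembly factors of complexes II and III had 6 of 8 below 0 (median -0.16, 1 lower), those of complex IV 17 of 23 (-0.13, 4 lower and 2 higher) and those of complex V 4 of 5 (-0.13, 1 lower). COA3, which stabilises newly made COX1 protein, was at 36.0, 41.9, 39.6 and 51.4 CPM in positive and 95.2, 55.3, 74.3 and 64.5 CPM in negative libraries. All positive values were below all negative ones, with a log2 fold change of -0.78 ± 0.20 (SE; edgeR adjusted p = 0.309). TACO1, which activates translation of COX1, was at -0.59, ACN9 (SDHAF3), an assembly factor of complex II, at -0.37, LYRM7, which serves complex III, at 0.19, and ATPAF1 and TMEM70, which serve complex V, at -0.43 and -0.26. COX11, which delivers copper to complex IV, was at 1.05 (0.16 to 1.94).

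Of the electron carriers and the enzymes of ubiquinone synthesis 9 of 13 were below 0 (median -0.21, 1 lower and 1 higher). CYCS, which encodes cytochrome c, the carrier between complexes III and IV, was at 116, 147, 93.4 and 152 CPM in positive and 508, 158, 197 and 155 CPM in negative libraries. The groups did not overlap, yet negative 2 stood far above the rest, and the log2 fold change was -1.001 (-1.77 to -0.23; edgeR adjusted p = 0.312). ADCK4 (COQ8B), which takes part in ubiquinone synthesis, was at 0.91 (0.20 to 1.62). It was at 39.0 CPM in positive 1 and 6.69 CPM in negative 2, with the other libraries between 12.9 and 18.9 CPM. No estimate without these 2 libraries is given for ADCK4. The regulators of respiratory genes had 4 of 11 below 0 and a median of 0.09, with 0 genes at an unadjusted p under 0.05 in edgeR's test. TFAM, which packages and transcribes mitochondrial DNA, was at 0.54 (-0.12 to 1.20) and TFB1M at -0.45 (-1.07 to 0.16).

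The 5 tested mitochondrially encoded genes of complexes III to V were all above 0, between 0.73 (MT-CO2) and 1.56 (MT-CO1), with MT-CO3 at 1.11, and 3 were higher at an unadjusted p under 0.05. They rest on few counts, with MT-CO1 at 135 counts in positive 1 and 14 to 28 in the other libraries. With MT-ATP8, which was too low to test, their summed level was 64.1, 17.4, 15.6 and 12.1 CPM in positive 1, 3, 4 and 5 and 7.85, 13.5, 13.4 and 11.7 CPM in negative 2, 6, 7 and 8. Positive 1 stood far above the rest, and the ranges of the 2 groups overlapped.

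**Figure D5:**
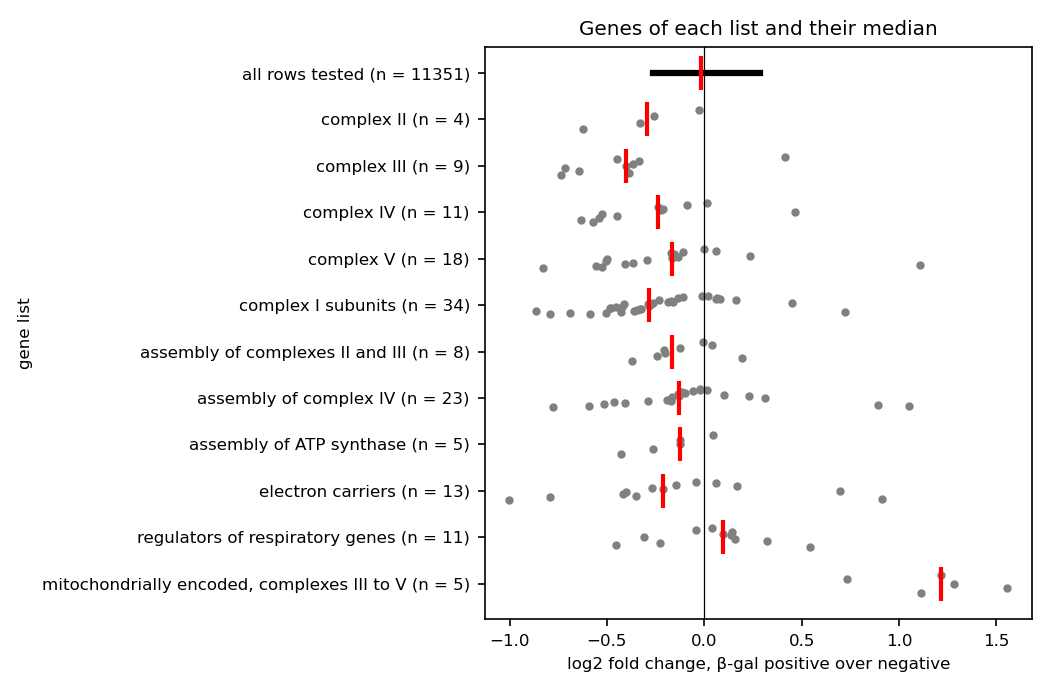
Log2 fold change (x axis) of the tested genes of each list (grey points, y axis) with the list median in red, and for all rows the interquartile range as a black bar. The medians of complexes I to V lie between -0.40 and -0.17, that of all rows is -0.02, and the mitochondrially encoded genes lie above 0.

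Set beside the promoter letters, the 8 genes with GCATGCGC had log2 fold changes from -0.37 to 0.02 with a median of -0.12, and 0 of them had an unadjusted p under 0.05 in edgeR's test. The 24 tested genes whose matched promoter lacked it had a median of -0.42, with 10 lower. For CCGGAAG the medians were -0.33 with the letters (14 genes) and -0.31 without (18 genes), and for AAGATGG -0.37 (9 genes) and -0.26 (23 genes). SDHB, COX6A1 and COX5B, shown above with the NRF1 letters, were at -0.33, -0.09 and 0.02, and ATP5H, shown with the ETS letters, at -0.53. These are descriptions with no test.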

How the data were processed

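RNA was extracted with Trizol and made into amplicon libraries with an Ion Torrent kit that targets human transcripts, per the labels' protocols. A count then comes from a short stretch per gene, so CPM is not a measure of level between genes, and the highest mean CPM and the 50 CPM minimum only sort rows by how well they were counted. The submitters' processing notes name fastp 0.20.1, Salmon 1.9 and GRCh38, with the annotation and row filter not given in the sources used here. Estimated counts for each gene, whole numbers that rounding left as they were, were deposited by the authors. All pairs of libraries differed by more than sampling noise (chi-square per degree of freedom at least 7.98).

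Rows were kept with filterByExpr (minimum count 10, total 15), leaving 11351 of 13841. They were tested with edgeR 4.0.16 in R 4.3.3 (TMM scaling, robust quasi-likelihood test, Benjamini-Hochberg adjustment over all rows, threshold 0.05), and the method was tested on simulated data. CPM is TMM-scaled. The SE was taken from the fold change and its F statistic, and intervals are 95% and cover the spread between libraries only. Amplicon reads carry no molecular identifiers.

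The genes, lists and tests were chosen with earlier results of these data known, so lists are given by counts and medians alone. Values per library are given for the 3 genes of smallest p in each complex, for any gene with an interval above 0 and for the gene of highest mean CPM in each complex; others whose values are shown (UQCRB, COX6C, ATP5B, COA3 and CYCS among them), and the background at 50 CPM, were chosen after the values were seen. In the other lists the 2 genes of smallest p were named, and others after their values were seen. Alternatives were other scalings, filters and tools (DESeq2 1.42.0, limma 3.58.1 voom), summed rows of 1 symbol, and libraries left out. Gene coordinates are from RefSeq (GRCh38.p14), in which all 43 genes were matched.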

Additional observations from a re-analysis of the deposited data

Results flagged for a closer look

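In a group of 4, a library was marked where its gap to the nearest other library was larger, as a share of the group's range, than Dixon's 95% limit, which chance gives in about 1 in 20 groups. Among 40 groups examined, 2 were marked. These groups did not cover every tested gene, so this is not a rate for the whole set. SDHB in negative 2 was at 46.5 CPM, with the other negative libraries between 33.8 and 35.5 CPM. ATP5L2 in positive 1 was at 10.5 CPM, with the other positive libraries between 3.46 and 3.54 CPM. Genes outside the 40 groups also had a library past the same limit. The 2 of 40 thus cannot be set against 1 in 20 for the whole set. In negative 2, CYC1 was at 501 CPM (other negative libraries 230 to 266), COX6C at 323 (181 to 202) and ATP5F1 at 175 (80.4 to 86.3). Also in negative 2, COX7B was at 1613 CPM (729 to 854) and ATP5J2 at 741 (446 to 465). ATP5J was at 13.5 CPM in positive 1, with the other positive libraries at 19.1 to 20.1 CPM. ATP5E was at 448 CPM in negative 6, with the other negative libraries at 274 to 288 CPM. The part of depth, or of any library as a whole, in these values was not tested.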

How the results depend on the processing

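No alternative called any of the 42 genes past the adjusted threshold. The count of 13 genes lower at an unadjusted p under 0.05 was 5 with library totals alone (2.85% of all rows, against 6.85%), 6 with upper quartile scaling (4.26%), 7 with at least 50 counts in 4 libraries (5.59%), 8 with limma voom (7.83%) and 5 without both positive 1 and negative 2 (4.27%), and ranged from 4 to 16 with single libraries left out. The 1 higher gene was 0 with at least 50 counts, with limma voom and without both libraries, and 0 to 1 with single libraries left out. The median of -0.33 was -0.15 with limma voom and -0.10 without both libraries, the latter setting turning 10 genes to above 0, UQCRQ (0.0168) among them, and 3 to below 0. The cause was not tested, except that leaving out libraries or rows leaves fewer of them to test. DESeq2 called 53 of all rows and edgeR 0. No paired analysis was possible because each library number was used once. Low counts limit COX7A2, ATP5L2, COX6B2 and the mitochondrially encoded genes.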
